A study of Mus musculus with 4 samples.

Results

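The genes described here are 6 secreted ligands of lung leukocytes, chosen by their symbols out of 32285 genes in the matrices: Areg (amphiregulin), Hbegf (heparin-binding EGF-like growth factor), Ereg (epiregulin), Nrg1 (neuregulin 1), Tgfa (transforming growth factor alpha) and Osm (oncostatin M). All but Osm belong to the EGF family. Osm belongs to the interleukin 6 family and was included by name. The choice was made with differences between the libraries in Areg, Hbegf and Nrg1 already seen, so every value below is a description and none is a test.

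The study addressed what uPAR, the urokinase receptor encoded by Plaur, does in allergic airway inflammation. The mutant mice were Plaur–/–, and the comparison mice were wild-type C57B6/J, with 8 mice of each genotype named in the design. Both genotypes had received LPS and OVA on day 0 and again on day 7, and aerosolized OVA on day 14, so no unchallenged mice are in the comparison. Lungs were digested, CD45.2+ leukocytes were sorted, and 1 single-cell RNA library was made per genotype. How many mice went into a library, their age, and the deleted part of Plaur are not given in the sources used here. The labels call the sorted cells circulating leukocytes in one field and a lysate of all lung cells in another.

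With 1 library per genotype no difference has a replicate check. The 95% intervals are exact and cover counting error only. After filtering, the KO-labelled library kept 9584 cells with 44076311 UMIs (unique transcript counts) and a median of 2778 per cell, and the WT-labelled library kept 8684 cells with 40960168 UMIs and a median of 3209 per cell. The libraries shared 16 cell barcodes. Both libraries held Plaur RNA, at 455 CPM in KO-labelled and 527 CPM in WT-labelled cells, where CPM is the usual scaling of a gene's UMIs by all UMIs of the same cells. By class it was lower in interstitial macrophages, at 95.8 CPM in KO-labelled and 445 CPM in WT-labelled cells, and higher in T cells, at 390 CPM in KO-labelled and 32.9 CPM in WT-labelled cells. A 3′ tag can lie outside a deleted part and so checks nothing, and "KO-labelled" and "WT-labelled" are used for that reason. Cells fell into 31 clusters, which marker genes placed in 17 classes of at least 50 cells per library. Each class is like the cell type it is named after by those markers, and the suffix "-like" is left out below. The 6 ligands took no part in the clustering.

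EGF-family ligands are made as membrane-anchored precursors. The protease Adam17 and its relatives cut them free, and the released ligands bind the receptors Egfr and Erbb2 to Erbb4, which are best known from epithelium and stroma. In lung, amphiregulin from group 2 innate lymphoid cells and regulatory T cells is known for its part in epithelial repair. Oncostatin M, a product of neutrophils and macrophages, acts on structural cells through receptors that share the signal chain Il6st.

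The upstream sequence of Areg is shown because receptors that raise cyclic AMP, a second messenger read through the cyclic AMP response element, are known to induce this gene. The stretch is the 250 bases before the Areg start in RefSeq (build GRCm38.p6, chr5:91139349-91139598, plus strand), with its right-hand end next to the start, and capitals mark the motif matches.
Areg: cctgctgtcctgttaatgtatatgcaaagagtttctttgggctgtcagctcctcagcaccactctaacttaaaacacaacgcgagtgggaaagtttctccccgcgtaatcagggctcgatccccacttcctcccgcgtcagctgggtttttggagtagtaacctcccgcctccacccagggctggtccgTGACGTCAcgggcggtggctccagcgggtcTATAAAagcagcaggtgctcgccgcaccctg
The response element TGACGTCA, searched on both strands, stood at bases -61 to -54 before the start, and the same letters were in 1.55% of 32851 promoter windows of RefSeq. A TATAAA box stood at -31 to -26, with a match in 12.4% of the windows. The AP-1 motif TGANTCA, present in 6.75% of windows, was not in this one. The window of Tgfa held none of the 3 motifs. Areg lies at 91139599 to 91148432 on chromosome 5, and Ereg is its neighbour at 91074617 to 91093649, with 45949 bases between them. Their main sources differed, as described below. Alveolar macrophages, the main source of Ereg, also held 8.90% of KO-labelled and 5.92% of WT-labelled Areg UMIs.

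The ligands differed in their source cells, though Hbegf, Nrg1 and Osm shared several myeloid classes. The leading class was the same in the KO-labelled and WT-labelled libraries for Areg, Ereg, Hbegf and Osm. Areg was chiefly a lymphoid product of group 2 innate lymphoid cells, regulatory T cells and some T cells. Ereg was confined to alveolar macrophages for 90.9% of its UMIs in the KO-labelled library and 95.6% in the WT-labelled library. Hbegf and Nrg1 came chiefly from macrophages, monocytes, dendritic cells and neutrophils. Hbegf was also found in gamma-delta T cells, in 14.1% of 64 KO-labelled and 14.5% of 83 WT-labelled cells. Its level there was 51.2 CPM in KO-labelled and 37.7 CPM in WT-labelled cells, from 12 KO-labelled and 13 WT-labelled UMIs. Neutrophils held 13.1% of KO-labelled and 21.7% of WT-labelled Hbegf UMIs, and 27 of 1353 KO-labelled and 106 of 948 WT-labelled Nrg1 UMIs. Osm was spread over nearly all myeloid cells and was by far the most abundant. Tgfa was close to undetected, with 12 UMIs among all KO-labelled cells and 9 among all WT-labelled cells.

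**Figure D1:**
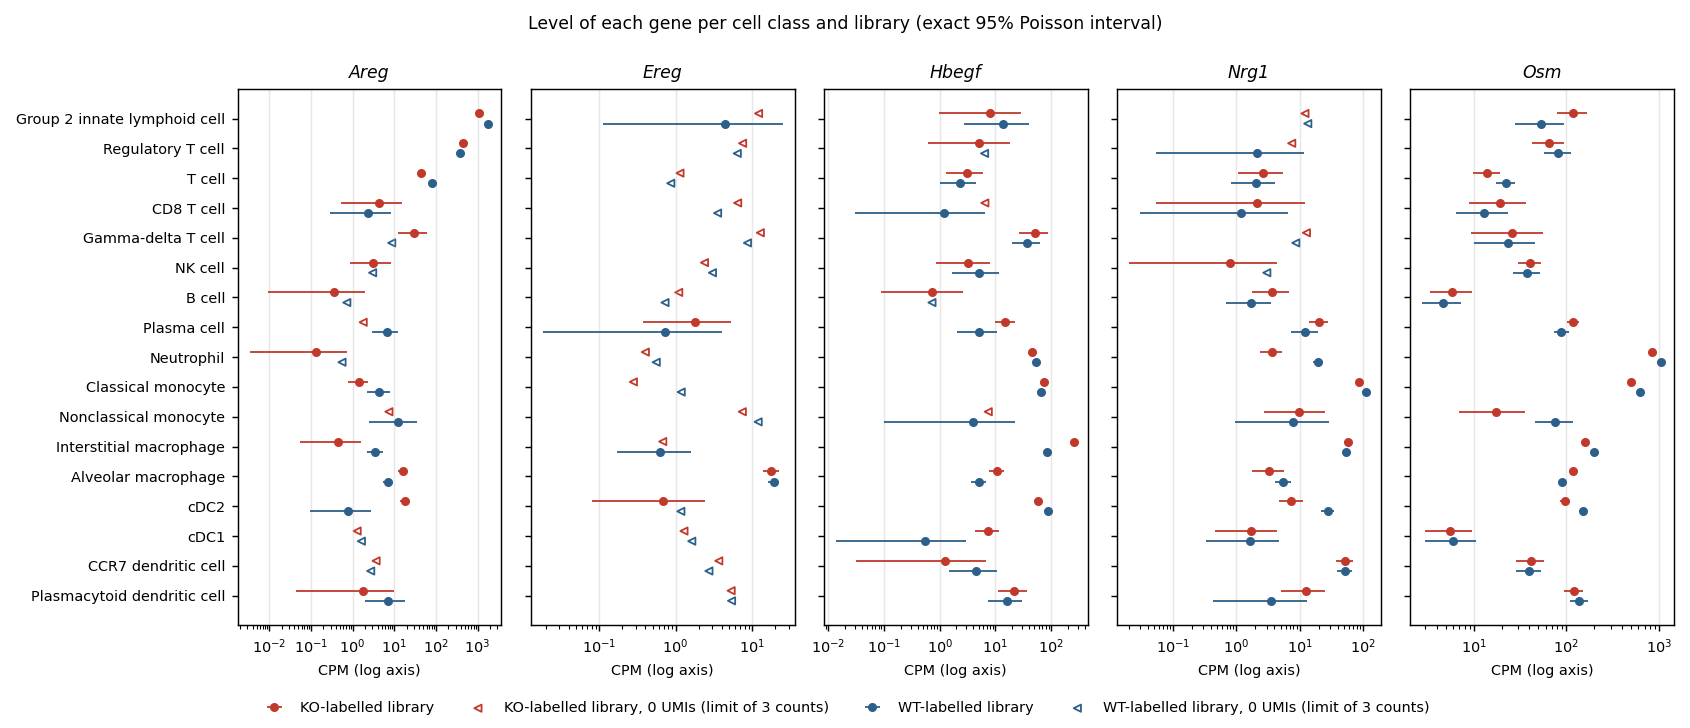
Level of 5 ligands in CPM (log axis) per cell class, with exact 95% Poisson intervals, in the KO-labelled (red, upper) and WT-labelled (blue, lower) library. Open triangles mark classes with 0 UMIs, drawn at the limit that 3 counts would give. Areg is highest in group 2 innate lymphoid cells, Ereg in alveolar macrophages, and Osm in neutrophils and classical monocytes, in both libraries.

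**Figure D2:**
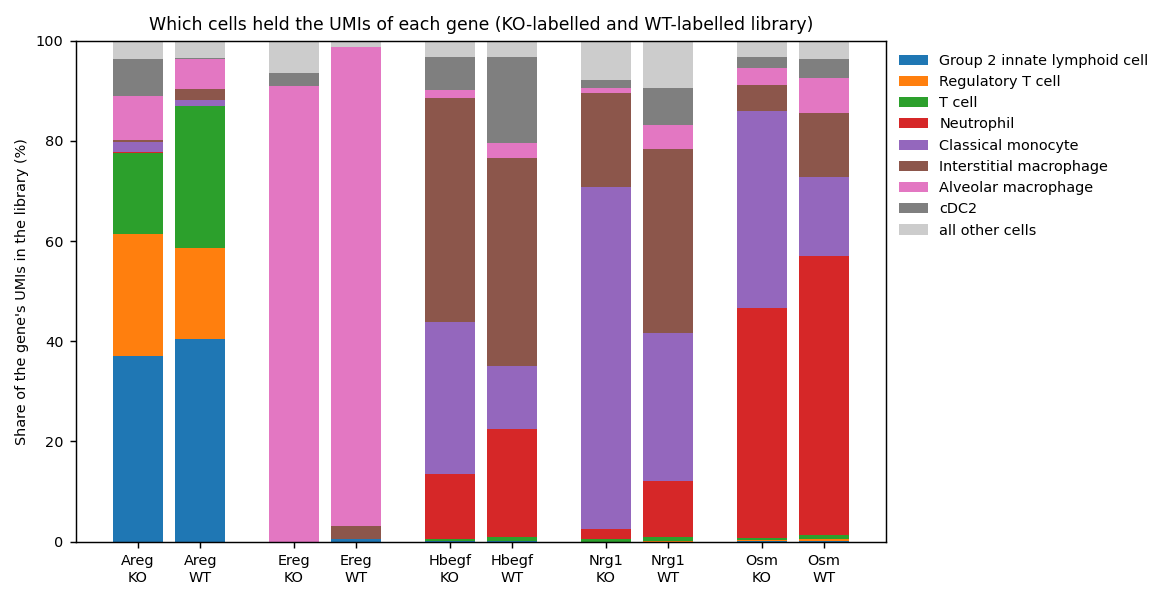
Share (%) of the UMIs of 5 ligands held by each cell class, with the KO-labelled bar left of the WT-labelled bar for each gene. For Nrg1, classical monocytes held 68.3% in the KO-labelled library and 29.5% in the WT-labelled library.

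Over all kept cells, Hbegf was higher in the KO-labelled library and Areg was lower. Hbegf was at 58.5 CPM in KO-labelled cells and 31.9 CPM in WT-labelled cells (log2 ratio 0.88, interval 0.78 to 0.97, where all such ratios divide KO-labelled by WT-labelled CPM). Areg was at 16.3 CPM in KO-labelled cells and 23.5 CPM in WT-labelled cells (log2 ratio -0.53, interval -0.67 to -0.39). Ereg was lower, at 1.75 CPM in KO-labelled and 3.91 CPM in WT-labelled cells (log2 ratio -1.16), while 2.65% of all genes with at least 20 UMIs were higher by a log2 ratio of at least 1 and 3.17% lower by as much. The median log2 ratio of all those genes was -0.10.

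Nrg1 and Osm were also higher over all KO-labelled cells, but lower once both libraries were given the same class make-up. Nrg1 was at 30.7 CPM in KO-labelled and 23.1 CPM in WT-labelled cells (log2 ratio 0.41), and Osm at 307 CPM in KO-labelled and 247 CPM in WT-labelled cells (log2 ratio 0.32). Classical monocytes, inflammatory cells from blood that hold much RNA, made up 8.97% of KO-labelled and 2.92% of WT-labelled cells, and 24.2% of KO-labelled and 6.19% of WT-labelled UMIs. With the class make-up of the KO-labelled library given to both, the log2 ratio of Nrg1 was -0.38 and that of Osm -0.30, beside -0.36 for Areg, 0.53 for Hbegf and -0.10 for Ereg. With the make-up of the WT-labelled library Nrg1 was at -0.29 and Osm at -0.26, beside -0.25 for Areg, 0.88 for Hbegf and -0.13 for Ereg. This reweighting was chosen after seeing the data.

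In 39 pairs of a ligand and a class with at least 20 UMIs, 18 lay above 0 (higher in KO-labelled cells) and 21 below. A log2 ratio of at least 1 was found for 6 higher and 5 lower pairs. The share of all measured genes that were higher by as much was 1.3% in alveolar macrophages (Areg and Hbegf), 1.68% in interstitial macrophages (Hbegf), 2.5% in cDC2 (Areg), 4.26% in plasma cells (Hbegf) and 5.8% in group 2 innate lymphoid cells (Osm). The share that were lower by as much was 2.28% in interstitial macrophages (Areg), 2.3% in cDC2 (Nrg1), 2.31% in nonclassical monocytes (Osm), 3.6% in classical monocytes (Areg) and 3.96% in neutrophils (Nrg1). Over all 17 classes these shares ran between 0.797% and 5.8% higher and between 1.28% and 5.61% lower. Nothing is read from the members' counts against them, since the members were chosen on this contrast. The interval lay above 0 in 8 pairs, below 0 in 14 and held 0 in 17. The share of all genes with an interval clear of 0 was not computed, so nothing is read from these counts either.

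**Figure D3:**
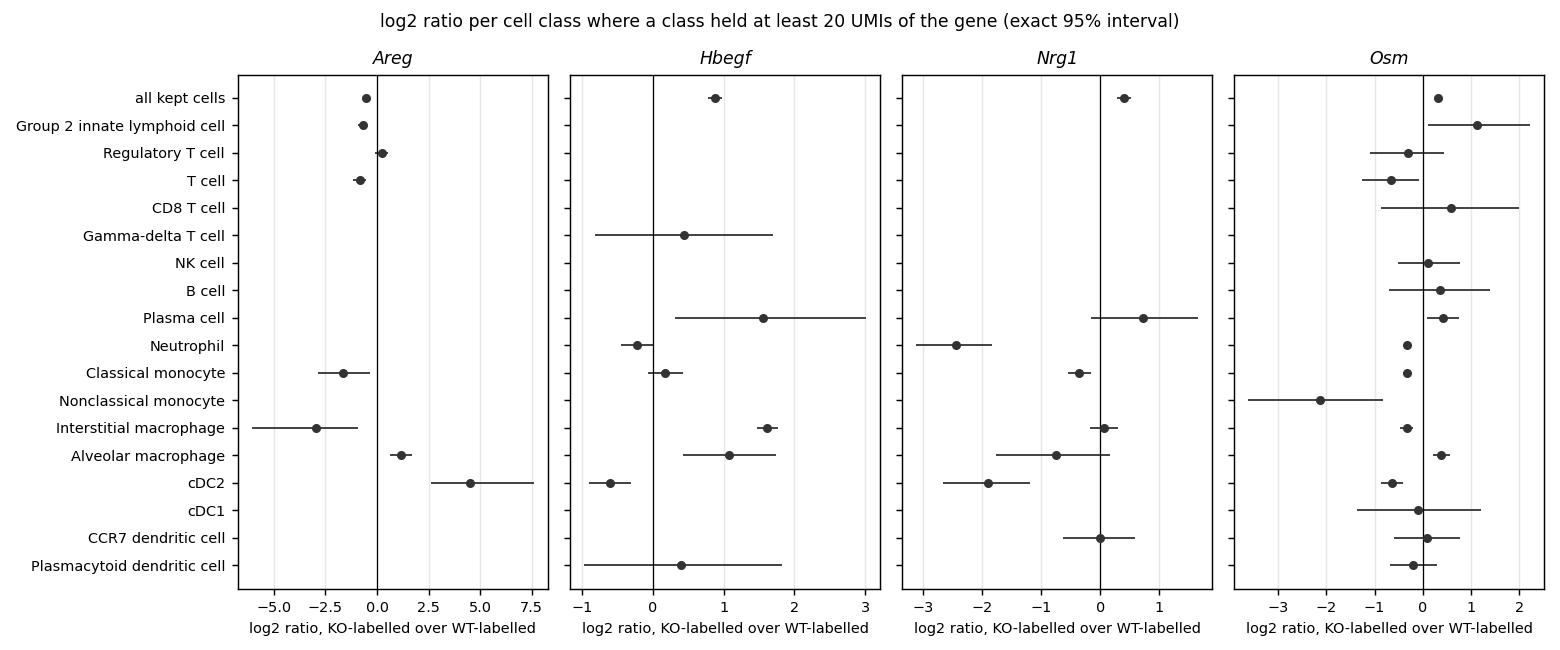
Log2 of the KO-labelled level divided by the WT-labelled level, with its exact 95% interval for 4 ligands, over all kept cells and in each class with at least 20 UMIs of the gene. Points right of the line at 0 are higher in the KO-labelled library. The x axes differ between panels.

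Areg in group 2 innate lymphoid cells, tissue-resident producers of type 2 cytokines, was lower in the KO-labelled library. These cells are rare, 75 in the KO-labelled and 58 in the WT-labelled library, yet they held 37.0% of all KO-labelled and 40.4% of all WT-labelled Areg UMIs. Areg was counted 266 times in the KO-labelled cells and 389 times in the WT-labelled cells, which is 1077 CPM in KO-labelled and 1746 CPM in WT-labelled cells (log2 ratio -0.70, interval -0.93 to -0.47). Of the genes measured in this class, 2.93% were lower by at least 1, and the median of all was 0.063.

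Both the share of these innate lymphoid cells with Areg and the UMIs per such cell were lower in the KO-labelled library. The intervals of the shares overlapped. An Areg UMI was found in 54.7% of KO-labelled cells (interval 42.7% to 66.2%) and in 72.4% of WT-labelled cells (interval 59.1% to 83.3%). With each cell thinned to 1000 UMIs the shares were 40.0% of KO-labelled (interval 28.9% to 52.0%) and 54.4% of WT-labelled cells (interval 40.7% to 67.6%). The cells with Areg held 6.49 UMIs of it on average in the KO-labelled and 9.26 in the WT-labelled library. After thinning there were 80 UMIs in 30 KO-labelled cells and 99 UMIs in 31 WT-labelled cells. As a measure of free RNA, B cells, which are not known to make Areg, held 1 UMI in 1126 KO-labelled cells and 0 UMIs in 1493 WT-labelled cells. The median depth of the KO-labelled cells was 3208 UMIs in innate lymphoid cells and 2049 in B cells, and that of the WT-labelled cells was 3520 in innate lymphoid cells and 2335 in B cells. Without the 5 richest cells of each library the level was 599 CPM in KO-labelled and 974 CPM in WT-labelled cells.

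The innate lymphoid cells also differed in RNA of other cells. The summed level of 9 neutrophil markers in them was 3081 CPM in the KO-labelled and 521 CPM in the WT-labelled library, with 5 of 6 measured markers higher. The summed level of 8 B cell markers was 336 CPM in the KO-labelled and 4.49 CPM in the WT-labelled library, where 7 of the 8 were at 0. Their part in the Areg difference was not tested. Markers of the cells themselves summed to 6977 CPM in KO-labelled and 7476 CPM in WT-labelled cells.

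Genes known to act upstream of Areg had no common direction in these cells. Il1rl1, the receptor for interleukin 33, was at 1846 CPM in KO-labelled and 1391 CPM in WT-labelled cells (log2 ratio 0.41, interval 0.20 to 0.62). Gata3, the transcription factor that defines these cells, was at 1158 CPM in KO-labelled and 1221 CPM in WT-labelled cells (interval of the log2 ratio -0.32 to 0.17). Of 7 genes in the upstream list 4 had enough UMIs, 2 of them higher and 2 lower, 1 of these by at least 1, where 2.93% of all genes of this class were. This was the adenosine receptor gene Adora2a, named after its values were seen, at 64.8 CPM in KO-labelled and 135 CPM in WT-labelled cells (log2 ratio -1.06, interval -2.03 to -0.13). Among immediate early genes, which respond to stimulation and to tissue digestion, Nr4a3 was at 32.4 CPM in KO-labelled and 193 CPM in WT-labelled cells (log2 ratio -2.57), and Nr4a1 was also lower (log2 ratio -1.35). Fosb, an AP-1 subunit, was at 417 CPM in KO-labelled and 180 CPM in WT-labelled cells (log2 ratio 1.22), and Fos was also higher (log2 ratio 0.81).

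Regulatory T cells, which restrain inflammation, had Areg levels whose ratio did not stand clear of counting error. The class held 175 Areg UMIs in 138 KO-labelled cells and 175 UMIs in 145 WT-labelled cells, or 438 CPM in KO-labelled and 373 CPM in WT-labelled cells (log2 ratio 0.23, interval -0.08 to 0.54). The sign depended on which cells the class took in. It was -0.88 with each library clustered alone, -0.38 with doublet calls kept, -0.29 with at most 5% mitochondrial UMIs and -0.26 at a coarser clustering.

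Other T cells had Areg in few cells, and its level there rested on single cells. Areg was at 44.5 CPM in KO-labelled and 79.0 CPM in WT-labelled T cells (log2 ratio -0.83, interval -1.15 to -0.51). In the WT-labelled library 5 cells held 89.8% of the UMIs, the richest of them 96 UMIs, whereas the 5 richest KO-labelled cells held 51.3%. Without those cells Areg was at 21.8 CPM in KO-labelled and 8.13 CPM in WT-labelled T cells (log2 ratio 1.42). Cluster 12, led by Tnfsf8, held 117 of the 117 KO-labelled and 270 of the 274 WT-labelled UMIs. Of the 5 richest WT-labelled cells, 5 carried at least 3 regulatory T cell markers and 3 carried at least 3 markers of group 2 innate lymphoid cells. Among the 5 richest KO-labelled cells these numbers were 4 and 2.

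**Figure D4:**
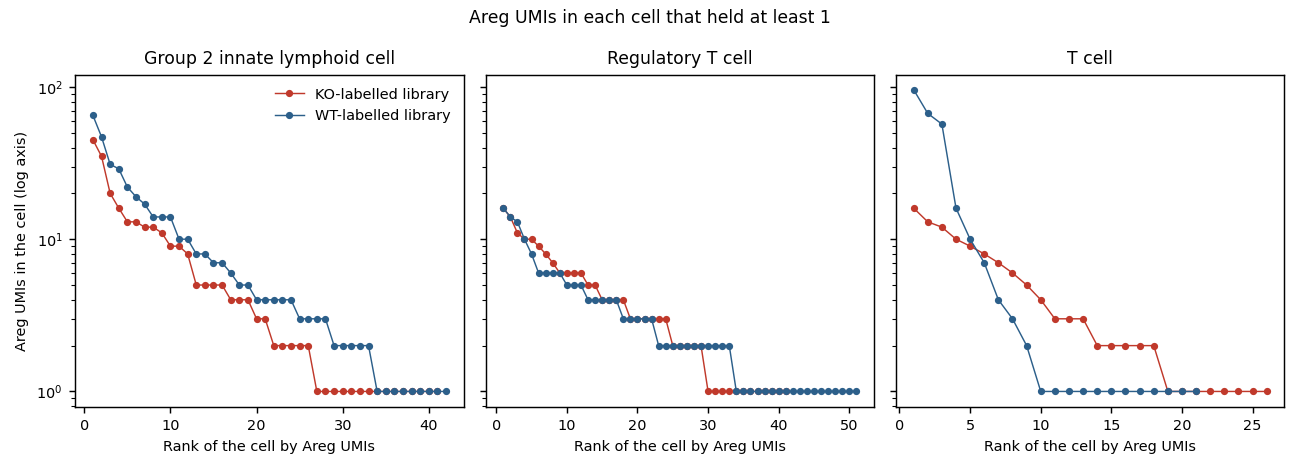
Areg UMIs (log axis) in each cell that held at least 1, ordered by rank, in 3 lymphoid classes, for the KO-labelled (red) and WT-labelled (blue) library. In innate lymphoid cells the WT-labelled curve lies above the KO-labelled one over most ranks, and in T cells 3 WT-labelled cells stand far above the rest.

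Myeloid Areg was low, and in several classes crowded in few cells. In cDC2, the dendritic cells best known for priming helper T cells, 53 UMIs were counted in the KO-labelled and 2 in the WT-labelled library (log2 ratio 4.52, interval 2.59 to 7.60), but 5 KO-labelled cells held 96.2% of them and 1 cell held 38. In alveolar macrophages, the phagocytes of the air spaces, Areg was at 16.2 CPM in KO-labelled and 7.17 CPM in WT-labelled cells (log2 ratio 1.18), which became -0.047 without the 5 richest cells per library. Those 5 cells held 67.2% of KO-labelled and 22.8% of WT-labelled Areg UMIs of this class. The 57 WT-labelled UMIs were spread over 48 cells. Interstitial macrophages, which lie in the lung tissue, held 2 Areg UMIs in the KO-labelled and 22 in the WT-labelled library (log2 ratio -2.93, interval -6.07 to -0.91), and 5 WT-labelled cells held 86.4% of that library's. Classical monocytes held 15 Areg UMIs in the KO-labelled and 11 in the WT-labelled library (log2 ratio -1.63, interval -2.85 to -0.36), and the ratio was 0.15 with their clusters weighted alike. Neutrophils held 1 UMI in 3312 KO-labelled cells and 0 UMIs in 2273 WT-labelled cells.

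Hbegf, whose membrane form is also the diphtheria toxin receptor in humans, was higher in the interstitial macrophages of the KO-labelled library. The class held 44.7% of KO-labelled and 41.4% of WT-labelled Hbegf UMIs. It counted 1152 UMIs in 695 KO-labelled cells and 541 UMIs in 788 WT-labelled cells, which is 261 CPM in KO-labelled and 85.1 CPM in WT-labelled cells (log2 ratio 1.62, interval 1.47 to 1.77). In this class 1.68% of genes were higher by at least 1, with a median of -0.026 over all genes. An Hbegf UMI was found in 31.9% of KO-labelled and 20.3% of WT-labelled cells, or in 14.4% of KO-labelled and 7.71% of WT-labelled cells after thinning. Among B cells 2 of 1126 KO-labelled and 0 of 1493 WT-labelled cells had one.

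Both clusters of interstitial macrophages shared the direction, to different degrees. In cluster 7, led by Syngr1 and Gpnmb, Hbegf was at 145 CPM in KO-labelled and 35.2 CPM in WT-labelled cells (log2 ratio 2.04, interval 1.77 to 2.31). In cluster 5, led by the chemokine genes Ccl12 and Ccl8, it was at 393 CPM in KO-labelled and 239 CPM in WT-labelled cells (log2 ratio 0.72, interval 0.54 to 0.90). Cluster 5 held 389 KO-labelled and 258 WT-labelled cells, and cluster 7 held 306 KO-labelled and 530 WT-labelled cells. With the clusters weighted alike the ratio of the class was 0.97, and without the 5 richest cells per library Hbegf was at 222 CPM in KO-labelled and 74.8 CPM in WT-labelled cells. Neutrophil markers in these macrophages summed to 1648 CPM in the KO-labelled and 2415 CPM in the WT-labelled library, with 0 of 8 higher. Immediate early genes were higher in 15 of 19 cases with a median of 0.19, among them Fosb at 93.5 CPM in KO-labelled and 53.8 CPM in WT-labelled cells. Their part in the Hbegf difference was not tested.

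In cDC2, Hbegf was lower. It was at 57.4 CPM in KO-labelled and 87.1 CPM in WT-labelled cells (log2 ratio -0.60, interval -0.90 to -0.31), and the ratio came to -0.11 with thinned cells and -0.22 with each library clustered alone. Classical monocytes had similar levels, 73.1 CPM in the KO-labelled and 64.7 CPM in the WT-labelled library (log2 ratio 0.18, interval -0.07 to 0.43). Their 2 clusters went opposite ways. Cluster 17, led by F13a1, was at 69.6 CPM in KO-labelled and 127 CPM in WT-labelled cells (log2 ratio -0.86, interval -1.42 to -0.30), where 5 WT-labelled cells held 70.5% of the UMIs. Cluster 21, led by Vcan, was at 73.5 CPM in KO-labelled and 54.8 CPM in WT-labelled cells (log2 ratio 0.42, interval 0.14 to 0.71).

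Neutrophils, the short-lived phagocytes that formed the largest class, had Hbegf at 45.3 CPM in the KO-labelled and 52.8 CPM in the WT-labelled library (log2 ratio -0.22, interval -0.45 to 0.01). It was concentrated in clusters 2 and 6, both led by Egln3 among other genes. In cluster 2, which also had the tissue factor gene F3 in the lead, Hbegf was at 138 CPM in KO-labelled and 111 CPM in WT-labelled cells, and in cluster 6 at 48.5 CPM in KO-labelled and 49.9 CPM in WT-labelled cells. The intervals of both ratios held 0. With the 4 neutrophil clusters weighted alike the ratio of the class was 0.18.

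Alveolar macrophages and plasma cells had little Hbegf. In alveolar macrophages it was at 10.7 CPM in KO-labelled and 5.03 CPM in WT-labelled cells (log2 ratio 1.08, interval 0.42 to 1.74), and -0.42 with thinned cells, which held 4 UMIs in the KO-labelled and 9 UMIs in the WT-labelled library. Plasma cells, which secrete antibody, held 25 Hbegf UMIs in the KO-labelled and 7 in the WT-labelled library (log2 ratio 1.56), and 5 cells held 92% of them in the KO-labelled and 100% in the WT-labelled library. Neutrophil markers summed in alveolar macrophages to 972 CPM in the KO-labelled and 382 CPM in the WT-labelled library, with 8 of 8 higher, and in plasma cells to 13388 CPM in the KO-labelled and 6329 CPM in the WT-labelled library. Their part was not tested.

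Nrg1, a ligand of Erbb3 and Erbb4, came chiefly from classical monocytes and interstitial macrophages, and it was lower in KO-labelled neutrophils and cDC2. Interstitial macrophages held 18.8% of KO-labelled and 36.9% of WT-labelled Nrg1 UMIs, beside the shares of classical monocytes given above in the plot of sources. Classical monocytes counted 924 UMIs in 860 KO-labelled cells and 280 UMIs in 254 WT-labelled cells, which is 86.5 CPM in KO-labelled and 110 CPM in WT-labelled cells (log2 ratio -0.35, interval -0.55 to -0.15). Of the genes in this class 3.6% were lower by at least 1, and the median was -0.044. The difference lay in cluster 17, at 152 CPM in KO-labelled and 314 CPM in WT-labelled cells (log2 ratio -1.05, interval -1.40 to -0.69), where 5 cells held 29.8% of KO-labelled and 57.8% of WT-labelled UMIs. Cluster 21 was at 79.0 CPM in KO-labelled and 78.1 CPM in WT-labelled cells (interval of the log2 ratio -0.23 to 0.26). Without the 5 richest cells per library the ratio of the class was -0.081, and with each library clustered alone it was -0.090.

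**Figure D5:**
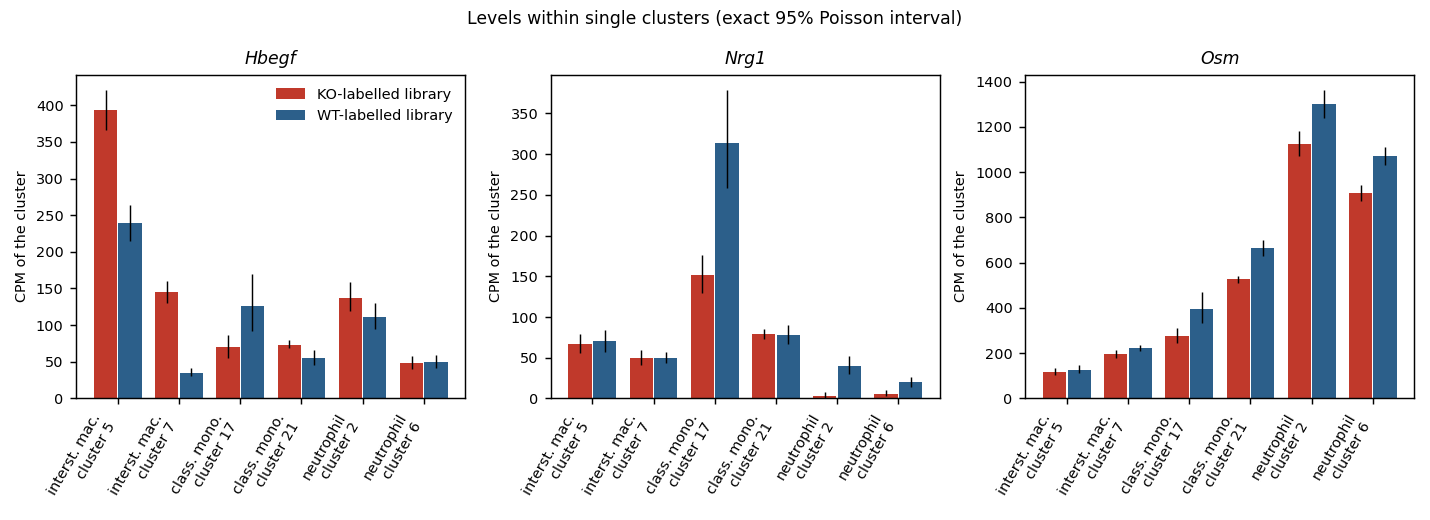
Level in CPM with exact 95% Poisson intervals of Hbegf, Nrg1 and Osm in single clusters of interstitial macrophages, classical monocytes and neutrophils, with the KO-labelled bar left of the WT-labelled bar. Hbegf is higher in KO-labelled cells of interstitial macrophage clusters 5 and 7, Nrg1 is lower in monocyte cluster 17 and neutrophil clusters 2 and 6, and Osm is lower in all 6 clusters shown.

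In neutrophils Nrg1 was rare and lower in the KO-labelled library. There were 27 UMIs among 3312 KO-labelled cells and 106 among 2273 WT-labelled cells, which is 3.62 CPM in KO-labelled and 19.7 CPM in WT-labelled cells (log2 ratio -2.45, interval -3.11 to -1.82). In this class 3.96% of genes were lower by at least 1, with a median of -0.065. In cluster 2 it was at 3.44 CPM in KO-labelled and 40.1 CPM in WT-labelled cells, and in cluster 6 at 6.07 CPM in KO-labelled and 19.7 CPM in WT-labelled cells.

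The share of neutrophils with an Nrg1 UMI was 0.574% in the KO-labelled and 1.89% in the WT-labelled library. In B cells, which are not known as a source, the shares were 0.888% in the KO-labelled and 0.469% in the WT-labelled library. Median depths of neutrophils were 1729 UMIs in the KO-labelled and 1745 UMIs in the WT-labelled library, below those of B cells. The KO-labelled share in neutrophils was thus at the level of background. Markers of other Nrg1 sources in neutrophils went both ways. Those of classical monocytes summed to 1301 CPM in KO-labelled and 1008 CPM in WT-labelled neutrophils, those of interstitial macrophages to 13.7 CPM in KO-labelled and 20.1 CPM in WT-labelled neutrophils (4 of 6 lower), and those of cDC2 to 8.72 CPM in KO-labelled and 18.2 CPM in WT-labelled neutrophils. Their part in the Nrg1 difference was not tested. Without the 5 richest cells per library, neutrophil Nrg1 was at 2.15 CPM in KO-labelled and 12.5 CPM in WT-labelled cells.

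In cDC2, Nrg1 was at 7.43 CPM in KO-labelled and 27.7 CPM in WT-labelled cells (log2 ratio -1.90, interval -2.66 to -1.19, where 2.3% of genes were lower by at least 1). The ratio was -1.04 at the coarser clustering, which gave no separate class of CCR7 dendritic cells. CCR7 dendritic cells, a migratory state, were at 51.4 CPM in the KO-labelled and 51.8 CPM in the WT-labelled library. Interstitial macrophages were at 57.7 CPM in the KO-labelled and 55.1 CPM in the WT-labelled library (interval of the log2 ratio -0.17 to 0.31). By CPM as deposited, a difference in Nrg1 was thus not detectable in those macrophages. After thinning, Nrg1 was higher in the KO-labelled library, with 46 UMIs in 680 KO-labelled cells and 36 UMIs in 778 WT-labelled cells. An Nrg1 UMI was found in 36 of these KO-labelled and 28 of these WT-labelled macrophages. The intervals of these thinned shares overlapped. In plasma cells, with 34 UMIs in the KO-labelled and 17 in the WT-labelled library, 4 of the 5 KO-labelled cells with most Nrg1 carried at least 3 classical monocyte markers.

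Ereg was an alveolar macrophage gene, with 70 UMIs in 615 KO-labelled cells and 153 UMIs in 1012 WT-labelled cells. Its level per class was 17.8 CPM in KO-labelled and 19.3 CPM in WT-labelled alveolar macrophages (log2 ratio -0.12, interval -0.55 to 0.30). Alveolar macrophages made up 6.42% of KO-labelled and 11.7% of WT-labelled cells, beside the log2 ratio of -1.16 over all cells. In the small cluster 8, led by Cfb, 1 UMI was counted in 96 KO-labelled cells and 28 UMIs in 151 WT-labelled cells. In the main cluster 10 Ereg was at 21.4 CPM in KO-labelled and 18.9 CPM in WT-labelled cells.

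Tgfa had no class with 20 UMIs, and no ratio by class was computed. Interstitial macrophages held 4 UMIs in the KO-labelled and 1 in the WT-labelled library. A cluster with epithelial markers, outside the classes and with 19 KO-labelled and 4 WT-labelled cells, held 3 UMIs in KO-labelled and 2 UMIs in WT-labelled cells. Over all cells the log2 ratio was 0.31 with an interval of -1.06 to 1.74.

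By CPM as deposited, Osm was lower in each of its main sources in the KO-labelled library, by similar amounts. In classical monocytes this did not hold for the share of cells after thinning. Neutrophils were at 834 CPM in the KO-labelled and 1050 CPM in the WT-labelled library (log2 ratio -0.33, interval -0.38 to -0.28), classical monocytes at 500 CPM in the KO-labelled and 628 CPM in the WT-labelled library (log2 ratio -0.33), and interstitial macrophages at 158 CPM in the KO-labelled and 200 CPM in the WT-labelled library (log2 ratio -0.34). In cDC2 it was at 97.2 CPM in KO-labelled and 151 CPM in WT-labelled cells (log2 ratio -0.63, interval -0.86 to -0.41). Neutrophil markers were lower too in interstitial macrophages and cDC2, with 0 of 8 higher in each. They summed to 1648 CPM in KO-labelled and 2415 CPM in WT-labelled interstitial macrophages, and to 1662 CPM in KO-labelled and 2517 CPM in WT-labelled cDC2, and their part in the lower Osm was not tested. In classical monocytes 7 of 9 neutrophil markers were higher. They summed to 46664 CPM in KO-labelled and 35888 CPM in WT-labelled monocytes, beside 122067 CPM in KO-labelled and 96606 CPM in WT-labelled neutrophils. Their part in the Osm, Nrg1 and Hbegf levels of monocytes was not tested. Osm was lower in all 4 neutrophil clusters, with ratios between -0.53 in cluster 1 and -0.20 in cluster 0. Osm was found in 60.3% of KO-labelled and 66.8% of WT-labelled neutrophils, or 45.3% of KO-labelled and 51.2% of WT-labelled cells after thinning. In classical monocytes the shares were 79.8% of KO-labelled and 80.7% of WT-labelled cells. After thinning they were 34.6% of KO-labelled and 32.5% of WT-labelled cells. Those thinned monocytes held 391 Osm UMIs in 836 KO-labelled cells and 131 UMIs in 252 WT-labelled cells. The shares in B cells were 1.33% in the KO-labelled and 1.07% in the WT-labelled library. TMM and DESeq2 factors each moved the neutrophil ratio of Osm to -0.22, a shift of 0.11 that they gave to every gene of this class. In classical monocytes the same shift was 0.12 with TMM and 0.10 with DESeq2 factors.

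Alveolar macrophages went the other way in Osm. They were at 117 CPM in the KO-labelled and 89.2 CPM in the WT-labelled library (log2 ratio 0.39, interval 0.21 to 0.56), beside the higher neutrophil markers given above for this class. Group 2 innate lymphoid cells held 29 Osm UMIs in the KO-labelled and 12 in the WT-labelled library (log2 ratio 1.12, interval 0.11 to 2.23), again beside higher neutrophil markers. The part of neutrophil RNA in both was not tested. Nonclassical monocytes, which patrol vessels, held 7 in the KO-labelled and 19 in the WT-labelled library (log2 ratio -2.13), and 1.94 with each library clustered alone. T cells were at 14.1 CPM in the KO-labelled and 22.2 CPM in the WT-labelled library (log2 ratio -0.66), and the ratio was 0.15 when doublet calls were left in.

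Within interstitial macrophages the ligands went different ways, and within cDC2 all measured ligands but Areg were lower. In interstitial macrophages Hbegf was at a log2 ratio of 1.62, Nrg1 at 0.07, Osm at -0.34 and Areg at -2.93. In cDC2 Areg was at 4.52, Hbegf at -0.60, Osm at -0.63 and Nrg1 at -1.90. The Areg ratios of both classes rested on few cells. Without the 5 richest cells per library, interstitial macrophages had 0 KO-labelled and 3 WT-labelled Areg UMIs left. The cDC2 had 2 KO-labelled and 0 WT-labelled UMIs left, so neither Areg ratio had a value. Among thinned interstitial macrophages, Osm was found in 22.4% of KO-labelled and 21.7% of WT-labelled cells that also had Hbegf, and in 11.3% of KO-labelled and 16.4% of WT-labelled cells that had none. In thinned neutrophils the share with Osm was 51.5% of KO-labelled and 50.6% of WT-labelled cells with Hbegf, and 45.1% of KO-labelled and 51.2% of WT-labelled cells without.

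Other genes followed the ligands over the 17 classes, measured as the Pearson correlation of log2(CPM + 1), averaged over the KO-labelled and WT-labelled libraries. Classes differ in depth and cell number, so these values describe likeness only. Areg was most like Il1rl1 (0.81), Ly6c1 (0.77) and Neb, the nebulin gene (0.77). Nrg1 was close in pattern to B4galt6 (0.82) and the monocyte chemokine gene Ccl2 (0.82). Osm was most like the chemokine receptor gene Ccr1 (0.88), Tarm1 (0.88) and the chemokine gene Cxcl2 (0.88), and Tarm1 was also near Hbegf (0.73), beside Macrod2 (0.76) and the small Maf gene Maff (0.71). Ereg was most like Gmpr (0.96), the serotonin transporter gene Slc6a4 (0.93) and Gm41307 (0.92). Among the ligands themselves Hbegf and Osm were most alike (0.70) and Areg and Nrg1 least (-0.45).

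Receptors for the EGF-family ligands were nearly absent from most of these leukocytes. The 4 receptors summed to 3.22 CPM over all KO-labelled and 4.27 CPM over all WT-labelled cells. By class they were highest in plasmacytoid dendritic cells, at 26.6 CPM in KO-labelled and 23.3 CPM in WT-labelled cells. Egfr had 54 UMIs among all KO-labelled and 91 among all WT-labelled cells, and Erbb3, the Nrg1 receptor, 71 UMIs in KO-labelled and 55 UMIs in WT-labelled cells. Erbb2 and Erbb4 held fewer. Of 10 genes for shedding and traffic of the ligands 8 were lower and 2 higher over all cells, with a median of -0.10, equal to that of all genes. The 2 highest by ratio were Adam8, a myeloid protease, at 256 CPM in KO-labelled and 155 CPM in WT-labelled cells (log2 ratio 0.72), and Adam19 (log2 ratio 0.20). The 2 lowest were Timp3, the inhibitor of Adam17, at 2.97 CPM in KO-labelled and 8.03 CPM in WT-labelled cells (log2 ratio -1.43), and the tetraspanin gene Cd9 (log2 ratio -0.50). In interstitial macrophages, where Hbegf was high, Adam17 was at 182 CPM in KO-labelled and 203 CPM in WT-labelled cells (log2 ratio -0.16), and Adam8 at 128 CPM in KO-labelled and 80.6 CPM in WT-labelled cells (log2 ratio 0.67). The values over all cells were not adjusted for class make-up. Within single classes the shedding genes went both ways, with 6 higher and 2 lower in interstitial macrophages and 3 higher and 5 lower in neutrophils.

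Feedback genes of EGF receptor signalling showed no common direction, with 4 of 7 measured genes higher and 3 lower over all cells. In interstitial macrophages 4 of 5 were higher with a median of 0.17, the highest being the ubiquitin ligase gene Cblb at 88.1 CPM in KO-labelled and 58.5 CPM in WT-labelled cells. Nrg4, another family member, was an alveolar macrophage gene like Ereg, at 31.7 CPM in KO-labelled and 40.3 CPM in WT-labelled alveolar macrophages (log2 ratio -0.35, interval -0.66 to -0.04).

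Il6, a relative of Osm, was lower in KO-labelled classical monocytes. It was at 8.05 CPM in KO-labelled and 59.2 CPM in WT-labelled classical monocytes (log2 ratio -2.88, interval -3.28 to -2.49), and at 17.2 CPM in KO-labelled and 28.5 CPM in WT-labelled interstitial macrophages (log2 ratio -0.73). Of 6 measured genes of this list 4 were lower in classical monocytes, 2 of them by at least 1, where 3.6% of all genes of this class were lower by as much. Lifr, which in mice can also bind oncostatin M, was at 30.1 CPM in KO-labelled and 16.5 CPM in WT-labelled interstitial macrophages (log2 ratio 0.87, interval 0.49 to 1.25). Osmr, the specific receptor chain, held 57 UMIs among all KO-labelled and 78 among all WT-labelled cells.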

How the data were processed

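Sorted lung leukocytes were profiled by droplet single-cell RNA sequencing. The authors deposited UMI counts per gene and called cell barcode, not normalized. The software was Cell Ranger 7.0.0, per the headers of the files, and Cell Ranger 7.1.0 and 7.0.0 with mm10, per the submitters' processing notes. Matrices were matched to genotypes through the library prefix in the labels. The antibody tags were not used here.

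A filter of 200 genes or more and 10% mitochondrial UMIs or less left out 61 KO-labelled and 80 WT-labelled barcodes. Scrublet in scanpy 1.11.5 removed 457 KO-labelled (4.55%) and 260 WT-labelled (2.91%) doublets. Both libraries were clustered together (3000 variable genes without the 6 ligands, 30 components, 15 neighbours, Leiden resolution 1). A cluster was named when at least 3 markers of a type were in 20% of its cells and 2-fold above other cells. UMIs were summed per class and library and given as CPM, with exact Poisson, Clopper-Pearson and conditional binomial intervals at 95%. A reported ratio needed 20 UMIs over both libraries, and its alternatives 1 UMI in each. A class with 0 UMIs was bounded at 3 counts. All intervals, limits and ratios treat UMIs as independent, and crowding in few cells can exceed them. The gap in depth between libraries was met by thinning each cell to 1000 UMIs. The interval code was tested on simulated counts.

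Named list genes are, per class described, at most the 2 highest and 2 lowest with at least 50 UMIs over both libraries. Genes of like pattern are the 3 with the highest correlation, with at least 200 UMIs. Of the genes taken by this rule, 1 is not reported here. The members, gene lists, markers and alternatives were chosen with earlier results of these data known. Alternatives used edgeR 4.0.16 and DESeq2 1.42.0 for scaling factors only. Sequences and positions are from RefSeq tables of GRCm38.p6, in which 2 of the 6 genes had a promoter entry, Areg and Tgfa.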

Additional observations from a re-analysis of the deposited data

Results flagged for a closer look

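Areg went in opposite directions in different classes, which were set apart because the interval of the log2 ratio (KO-labelled over WT-labelled) lay above 0.5 in some and below -0.5 in others. It was at 1.18 in alveolar macrophages and 4.52 in cDC2, against -2.93 in interstitial macrophages and -0.83 in T cells. The difference between classes was not tested, since each library is 1 sample. Without the 5 richest cells per library the ratio was -0.047 in alveolar macrophages and 1.42 in T cells, and no ratio could be had in cDC2, with 2 KO-labelled and 0 WT-labelled UMIs left, or in interstitial macrophages, with 0 KO-labelled and 3 WT-labelled UMIs left. In all 4 classes the Areg UMIs of at least 1 library were crowded in few cells. The 5 richest cells held 67.2% of KO-labelled UMIs in alveolar macrophages, 96.2% of KO-labelled UMIs in cDC2, 86.4% of WT-labelled UMIs in interstitial macrophages and 89.8% of WT-labelled UMIs in T cells. Of the 5 KO-labelled cDC2 with most Areg, 5 carried at least 3 cDC2 markers and 1 carried at least 3 markers of group 2 innate lymphoid cells.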

How the results depend on the processing

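Of 423 alternative values for the 39 ligand and class pairs, 37 differed in sign from the reported ratio, 29 of them in pairs whose interval held 0 and 8 in pairs whose interval did not. With each cluster of a class weighted alike, the log2 ratio of Ereg in alveolar macrophages was -0.80, of Nrg1 in classical monocytes -0.76, of Hbegf in interstitial macrophages 0.97, of Osm in neutrophils -0.27 and of Areg in classical monocytes 0.15. Nrg1 in classical monocytes was -0.090 with each library clustered alone and -0.081 without the 5 richest cells. Osm in neutrophils was -0.22 with TMM and -0.22 with DESeq2 factors. Past a log2 ratio of 1 were 6 pairs with thinned cells, against 11. Of the 11, 4 stayed past it, 2 did not and 5 had no value, and 2 other pairs passed. In pairs whose interval did not hold 0, signs changed for Areg in classical monocytes (above), Areg in alveolar macrophages (-0.047 without the 5 richest cells), Hbegf there (-0.42, thinned), Osm in nonclassical monocytes (1.94, libraries alone), Osm in T cells (0.15, doublet calls kept) and Areg in T cells (1.19 at 5% mitochondrial UMIs, 0.14 at resolution 0.5, 1.42 without the 5 richest cells). Over all cells Nrg1 became -0.38 and Osm -0.30 at the KO-labelled class make-up, and -0.29 and -0.26 at the WT-labelled one, a step added after seeing the data. Among pairs whose interval held 0 were Areg in regulatory T cells (-0.88 to -0.26 in 4 alternatives) and Hbegf in neutrophils (0.18 with clusters weighted alike). The causes were not tested.

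Areg in group 2 innate lymphoid cells gave no value at resolution 0.5, Areg in T cells none with libraries clustered alone, and Tgfa none at all. With genes of at least 1 or 100 UMIs in place of 20, the share of all neutrophil genes lower by at least 1 was 18.7% or 1.02%, against 3.96%. No paired analysis was possible because each genotype has 1 RNA library. Depth limits Areg, Ereg and Nrg1 outside their main sources, where most classes held under 20 UMIs.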

Other observations

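Cells outside the 17 classes, 96 KO-labelled and 58 WT-labelled, also held ligand RNA. In cluster 11, cycling cells led by Pclaf and Cenpf, Osm was at 67.7 CPM in 48 KO-labelled and 63.3 CPM in 38 WT-labelled cells, and Areg had 8 UMIs in KO-labelled and 5 UMIs in WT-labelled cells. In cluster 28, with epithelial markers and led by the surfactant gene Sftpc, Hbegf had 11 UMIs in 19 KO-labelled and 1 UMI in 4 WT-labelled cells. The same cluster held 3 Areg UMIs in its KO-labelled cells and 9 UMIs in its WT-labelled ones, all 9 in 1 cell.

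Nrg2, a relative of Nrg1, had a source of its own in dendritic cells. In cDC1, which cross-present antigen, it was at 29.6 CPM in the KO-labelled and 27.7 CPM in the WT-labelled library (interval of the log2 ratio -0.45 to 0.65), where Nrg1 held too few UMIs for a ratio. Egf itself held 44 UMIs among all KO-labelled and 79 among all WT-labelled cells.

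Neutrophil Nrg1 was lower beside a lower immediate early list, in which 13 of 19 genes were lower and 6 higher. Their median was -0.32, where that of all genes of the class was -0.065. Of the 19, 3 were lower by at least 1, as were 3.96% of all genes. Nr4a3 was at 27.4 CPM in KO-labelled and 113 CPM in WT-labelled cells (log2 ratio -2.05). In classical monocytes 15 of 19 were lower and 4 higher, with a median of -0.46 beside -0.044 for all genes. Of these, 2 were lower and 1 higher by at least 1, where 3.6% of all genes were lower and 2.86% higher. Nr4a3 was at 14.1 CPM in KO-labelled and 46.9 CPM in WT-labelled monocytes (log2 ratio -1.73). Any link of this list to Nrg1 was not tested.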
